A study of Lepidium sativum with 30 samples.

Results

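The transcript contigs described here are LesaDJ1A (TC_40165, ortholog of AT3G14990) and LesaTOLBa (TC_42901, ortholog of AT4G01870), which are 2 of the 48306 contigs in a count table of Lepidium sativum (garden cress) seed RNA. Both were chosen because the effect of myrigalone A (MyA) on their level differed between 6 h and 12 h of imbibition, so their levels at these times are given as a description, with no test. MyA is a dihydrochalcone from the fruits of Myrica gale and a putative allelochemical that delays germination. Poly(A) RNA of whole seeds was sequenced in 6 groups of 5 libraries each. These groups were dry seed at 0 h, seeds imbibed with MyA for 6, 12 and 18 h, and seeds imbibed in the control solution for 6 and 12 h. No gene was altered in any group, and the dry seeds received neither solution. The study's methods give 0.5 mM MyA for the treated seeds. Endosperm rupture began at about 12 h in control seeds and at about 18 h in MyA seeds, so that MyA at 18 h was compared with the control at 12 h at a like stage of germination, but not at a like time.

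DJ1A encodes a protein of the class I glutamine amidotransferase-like superfamily and is related to human DJ-1 (PARK7). In Arabidopsis, DJ-1A is known for protection against oxidative stress, and DJ-1 family proteins can detoxify methylglyoxal, a reactive by-product of glycolysis. TOLB is annotated as a tolB protein-related gene. Bacterial TolB is a periplasmic beta-propeller protein that belongs to the Tol-Pal system of the cell envelope, whereas the function of the plant protein is not established. The Arabidopsis gene is annotated as responding to cyclopentenones, the class of oxylipins that includes the jasmonate precursor 12-oxophytodienoic acid (OPDA).

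The libraries held between 20218374 and 33609057 counts. Levels are given as CPM (counts relative to the size of the library), scaled by trimmed mean of M-values (TMM) factors over 29 libraries. Contig lengths were not used, so levels were not compared between contigs. The fifth MyA library at 18 h was left out of all fits, as the study did, and its levels were scaled by library size alone. In that library 23.5% of all counts came from 1975 contigs that were at least 4-fold above the other MyA 18 h libraries, against 1.09% to 3.57% in those libraries. Neither DJ1A nor TOLBa was among these 1975 contigs. DJ1A reached at least 5 CPM in 29 of 29 libraries and had between 417 and 7475 counts. TOLBa reached 5 CPM in 17 libraries, with between 12 and 890 counts, and passed the abundance filter only through imbibed groups other than the control at 12 h. Whole seeds were sequenced, so that fewer cells of a type and less RNA per cell cannot be told apart. The series calls its libraries biological replicates, but nothing states whether they came from separate seed lots, so that p-values can cover no more than the differences among them.

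DJ1A transcripts were present in dry seeds and more abundant in every imbibed library except those of control seeds at 12 h, some of which were within the dry seed range. In dry seeds the levels were 32.9, 24.3, 30.4, 25.9 and 28.0 CPM, with a mean of 28.3 ± 3.43 (SD, n = 5). At 6 h they were 60.4, 69.5, 74.2, 71.7 and 79.5 CPM in MyA seeds (71.1 ± 6.998), against 63.6, 72.5, 69.0, 63.9 and 92.0 CPM in control seeds (72.2 ± 11.7). The MyA and control ranges at 6 h overlapped, with 1 MyA library below all control libraries and 1 control library above all MyA libraries, and all of them were above the highest dry seed library. At 12 h the levels were 122, 67.6, 69.1, 91.5 and 149 CPM in MyA seeds (99.8 ± 35.1), against 41.2, 30.2, 36.3, 32.6 and 30.2 CPM in control seeds (34.1 ± 4.69). The groups at 12 h did not overlap, with MyA replicates 1 and 5 standing far above replicates 2 and 3. At 18 h the MyA libraries had 167, 138, 174 and 221 CPM (175 ± 34.3, n = 4), the highest levels of the series apart from replicate 5 at 12 h, which lay above the lowest of them.

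TOLBa transcripts were scarce in dry seeds, abundant at 6 h with or without MyA, and lowest on average in control seeds at 12 h. The dry seed levels were 1.44, 1.43, 2.21, 1.31 and 2.89 CPM (1.86 ± 0.678, SD, n = 5). At 6 h they were 12.8, 9.35, 12.396, 6.87 and 20.7 CPM in MyA seeds (12.42 ± 5.21), against 29.7, 10.3, 13.9, 6.16 and 16.9 CPM in control seeds (15.4 ± 8.93). Every library at 6 h was above every dry seed library, and the MyA range lay inside the control range. At 12 h the levels were 10.8, 4.18, 20.3, 3.14 and 22.6 CPM in MyA seeds (12.2025 ± 8.97), against 0.898, 1.74, 0.371, 0.545 and 0.642 CPM in control seeds (0.838 ± 0.537). The lowest MyA library at 12 h was above the highest control library, although the MyA libraries ranged widely, with replicates 3 and 5 high and replicates 2 and 4 low. At 18 h the MyA libraries had 6.34, 5.62, 11.5 and 20.3 CPM (10.9 ± 6.79, n = 4), within the range of the MyA libraries at 12 h.

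**Figure D1:**
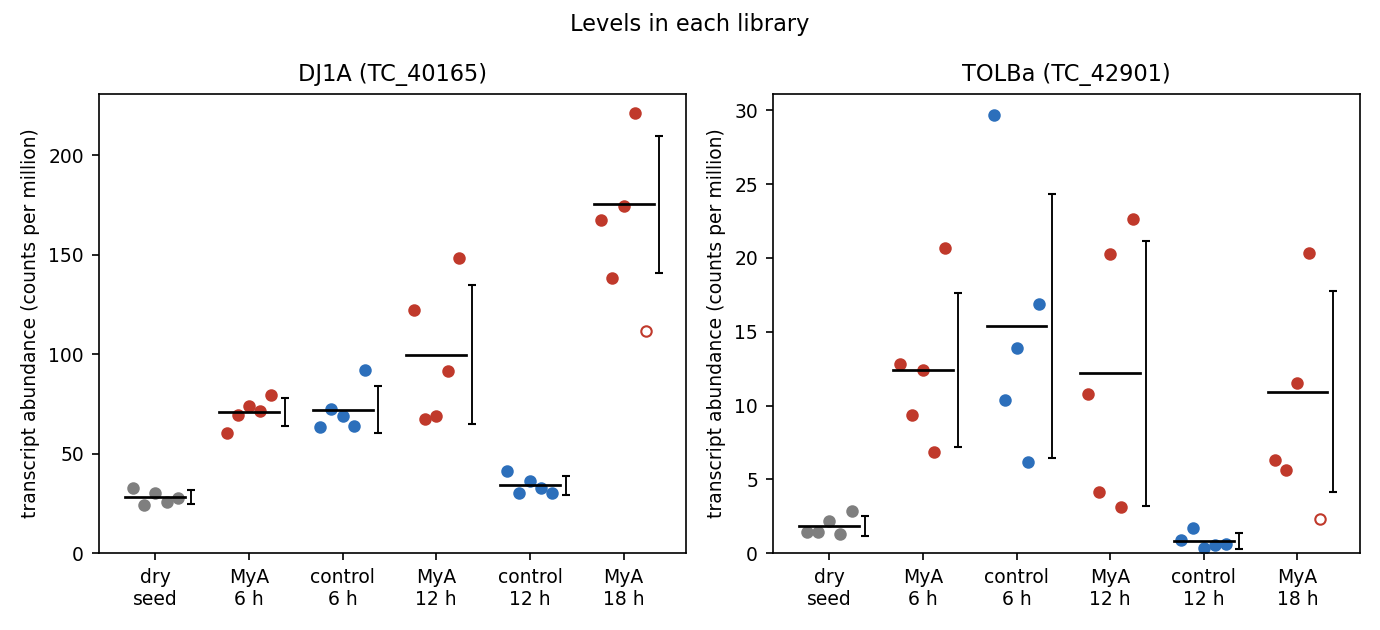
Transcript abundance (CPM, linear axes from 0) of DJ1A and TOLBa in each library; points are libraries in replicate order, horizontal lines are group means, bars to the right are SD, and the open point is the MyA 18 h library that was left out of the fits. Control libraries at 12 h sat at 30.2 to 41.2 CPM for DJ1A and 0.371 to 1.74 CPM for TOLBa, below every MyA library of 12 h and 18 h.

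For both contigs the levels in control seeds were lower at 12 h than at 6 h, whereas the mean levels in MyA seeds were close to or above those at 6 h. For DJ1A the control mean at 12 h was 0.472 times that at 6 h, and the MyA mean at 12 h was 1.40 times that at 6 h. For TOLBa the control mean at 12 h was 0.0545 times that at 6 h, whereas the MyA mean at 12 h was 0.983 times that at 6 h. In one fit over these 4 groups, the log2 fold change of MyA over control for DJ1A was -0.07 (SE 0.18) at 6 h and 1.60 (SE 0.18) at 12 h, which differ by 1.66 (SE 0.25). For TOLBa it was -0.33 (SE 0.49) at 6 h and 3.89 (SE 0.58) at 12 h, a difference of 4.23 (SE 0.75). These fold changes chose the pair and carry no test. Across all 22155 contigs tested, 0.0677% passed the threshold for this difference (an adjusted p below 0.05 in edgeR's quasi-likelihood test and a fold change above 2), 0.0135% passed for MyA over control at 6 h and 8.87% at 12 h. The first of these shares stands for 15 contigs and was not stable, with 108 contigs in DESeq2 and 4 to 1672 with each library left out in turn.

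The contigs that were enriched in the left-out library were also unequally spread over the MyA libraries at 12 h. They took 4.27%, 5.86%, 7.09%, 5.71% and 1.65% of the counts in MyA replicates 1 to 5, against 0.978% to 2.23% in the control libraries at 12 h. With these contigs removed, MyA over control at 12 h was 1.62 for DJ1A and 3.91 for TOLBa on the log2 scale, while the contigs called in that comparison fell to 44, against 1966 with them. The summed level of the seed maturation markers TIP3;1 (a tonoplast aquaporin of storage vacuoles) and LEA18 (a late embryogenesis abundant protein) was 10.7 to 31.1 CPM in MyA seeds and 2.72 to 12.6 CPM in control seeds at 12 h. At 6 h it was 21.0 to 43.2 CPM in MyA seeds and 10.9 to 41.1 CPM in control seeds, and neither of the 2 markers was at 0 in any group. Both markers were called higher with MyA at 12 h. The log2 fold changes were 1.48 for TIP3;1 (adjusted p = 0.0439, edgeR) and 1.61 for LEA18 (adjusted p = 0.0328, edgeR), in a comparison with 8.87% of contigs called. Those calls are from the fit that held the enriched contigs, and the markers are not given here without these contigs. Neither marker was called at 6 h. The part of these markers in the levels of DJ1A and TOLBa was not tested.

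At the onset of endosperm rupture, both DJ1A and TOLBa were higher in MyA seeds (18 h) than in control seeds (12 h), and no library of the groups overlapped. The mean ratio was 5.14 for DJ1A, with a log2 fold change of 2.35 (SE 0.15, n = 4 and 5). For TOLBa the mean ratio was 13.1 and the log2 fold change 3.68 (SE 0.51). The control libraries at 12 h were among those that chose the pair, so these values are a description with no test. Over all contigs tested in this comparison, 2.43% were called higher, 0.961% lower and 3.39% in either direction. The seed maturation markers summed to 3.70 to 13.8 CPM in MyA seeds at 18 h and were not called, with log2 fold changes of 0.45 for TIP3;1 and 0.53 for LEA18.

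Between 12 h and 18 h in MyA seeds both contigs differed by less than 2-fold, and since the 12 h libraries were among those that chose the pair, no test is given. DJ1A at 18 h was 1.76 times the mean at 12 h, a log2 fold change of 0.80 (SE 0.23), and the 18 h libraries overlapped only with replicate 5 of 12 h. TOLBa at 18 h was 0.897 times the mean at 12 h, a log2 fold change of -0.16 (SE 0.60), and 4 of 5 MyA libraries at 12 h lay within or below the 18 h range. Over all contigs tested, 2.32% were called between these times.

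Both contigs were also higher in imbibed seeds than in dry seeds, at 6 h without MyA and at 18 h with it. In control seeds at 6 h the log2 fold change over dry seed was 1.27 (SE 0.12) for DJ1A and 2.98 (SE 0.41) for TOLBa, and the mean ratios were 2.55 for DJ1A and 8.30 for TOLBa. The control libraries at 6 h were among those that chose the pair, so these values carry no test, and 26.5% of all contigs tested were called higher in this comparison. In MyA seeds at 18 h the log2 fold change over dry seed was 2.63 (SE 0.15, adjusted p = 9.71e-08, edgeR quasi-likelihood test with Benjamini-Hochberg adjustment over 22155 contigs, n = 4 and 5) for DJ1A and 2.57 (SE 0.42, adjusted p = 0.000236, edgeR) for TOLBa, with 25.9% of contigs called higher. TOLBa passed the abundance filter only through imbibed groups, and with no filter it stood at 2.76 (adjusted p = 0.000108, edgeR). Neither group of this last comparison was used to choose the pair, but MyA and imbibition cannot be told apart in it. These comparisons moved with the scaling. With RT-qPCR reference contigs as the scale, the median over all contigs in control seeds at 6 h over dry seed was 0.69 in place of 0.04 on the log2 scale, and DJ1A stood at 1.93 and TOLBa at 3.62.

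**Figure D2:**
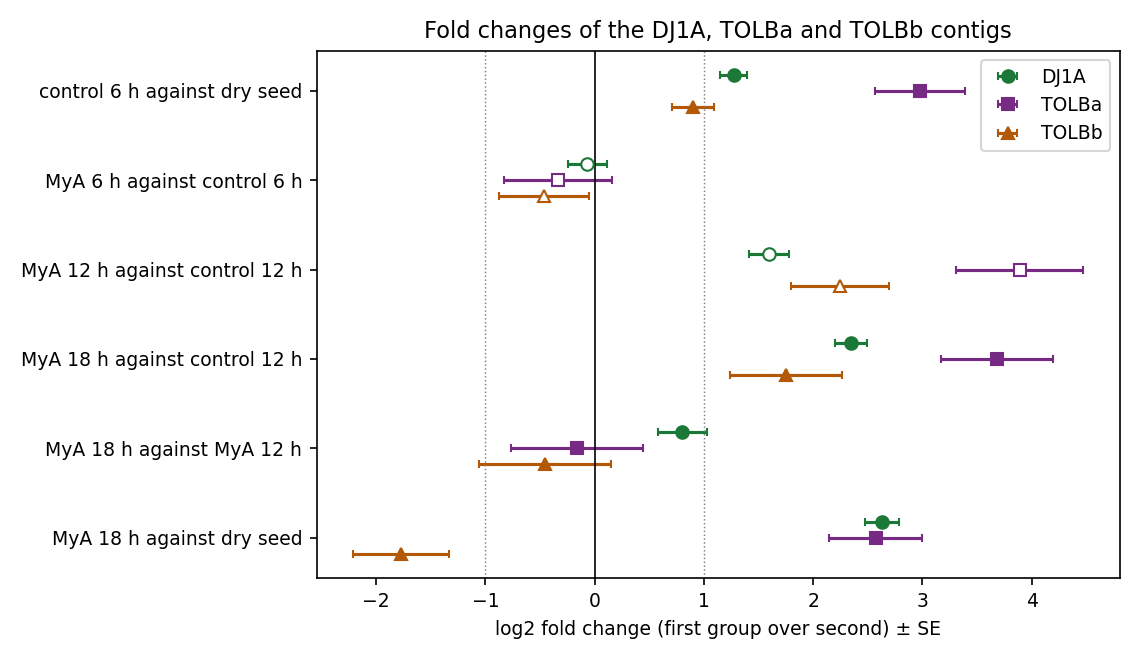
Log2 fold change of the first-named group over the second, with SE, for DJ1A, TOLBa and TOLBb (the second TOLB contig). Open symbols are MyA over control at 6 h and at 12 h, whose difference chose the pair, and dotted lines mark a 2-fold change. Of the comparisons with filled symbols, only MyA 18 h over dry seed uses no library that chose the pair. DJ1A and TOLBa lie at 2.35 and 3.68 for MyA 18 h over control 12 h, and at 2.63 and 2.57 over dry seed, where TOLBb lies at -1.77.

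A second contig of the tolB-related gene, TOLBb (TC_61219), was annotated to the same Arabidopsis gene. Whether TOLBa and TOLBb are gene copies, alleles or parts of one transcript is not stated, and reads shared by near-identical contigs could have been split between them. In dry seeds TOLBb had 35.2, 45.7, 24.5, 37.3 and 46.0 CPM (37.7 ± 8.86, SD, n = 5). At 6 h it averaged 54.9 ± 21.2 CPM in MyA seeds and 74.1 ± 17.5 CPM in control seeds, with overlapping ranges. At 12 h it had 11.6, 6.49, 27.8, 4.49 and 23.2 CPM in MyA seeds, against 2.78, 6.77, 2.29, 2.11 and 2.05 CPM in control seeds, so that control replicate 2 was above MyA replicates 2 and 4. At 18 h the MyA libraries had 4.79, 4.63, 17.2 and 16.8 CPM. TOLBb was thus below its dry seed range in every library of 12 h and 18 h except MyA replicate 3 at 12 h, in contrast to TOLBa, which was above its dry seed range in all fitted MyA libraries of these times.

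MyA at 18 h over control at 12 h was called for TOLBb, with a log2 fold change of 1.75 (SE 0.52, adjusted p = 0.0301, edgeR), but the call was lost without any one of 5 libraries. Without control replicate 1, 3 or 5 the adjusted p was 0.0616, 0.0694 or 0.063, and without MyA replicate 3 or 4 it was 0.0718 or 0.0568 (edgeR). With the fifth MyA library it was 0.0668. The control libraries at 12 h, like those at 6 h used below, were among those that chose TOLBa. TOLBb may share reads with TOLBa, so its tests that use these libraries are not independent of that choice. Over dry seed, TOLBb fell by 1.77 on the log2 scale in MyA seeds at 18 h (SE 0.44, adjusted p = 0.00362, edgeR), where 22.4% of contigs were called lower. In control seeds at 6 h it stood at 0.90 over dry seed (SE 0.19, adjusted p = 0.00096, edgeR), short of the 2-fold limit. It passed that limit with the lower count filter (1.06), with no filter (1.08), when scaled by library size alone (1.41) or by RT-qPCR reference contigs (1.54), and without dry seed replicate 2 or 5 (1.01 each).

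The share of each TOLB contig in their summed counts differed between the groups. TOLBa made up 4.91% ± 2.19 of their summed counts in dry seeds (SD, n = 5). At 6 h the share was 18.38% ± 2.82 in MyA seeds and 16.2% ± 4.90 in control seeds. At 12 h it was 48.3%, 39.1%, 42.2%, 41.1% and 49.4% in MyA seeds, against 24.4%, 20.4%, 13.95%, 20.5% and 23.9% in control seeds. At 18 h the MyA libraries had 57.0%, 54.8%, 40.0% and 54.7%, and the left-out library had 44.1%. Every MyA library of 12 h and 18 h was above every library of the other groups. The log2 ratio of TOLBa to TOLBb was higher by 2.03 in MyA seeds at 18 h than in control seeds at 12 h. These control libraries were among those that chose TOLBa, and no test is given. The ratio of counts depends on contig length, and therefore only its change was compared.

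**Figure D3:**
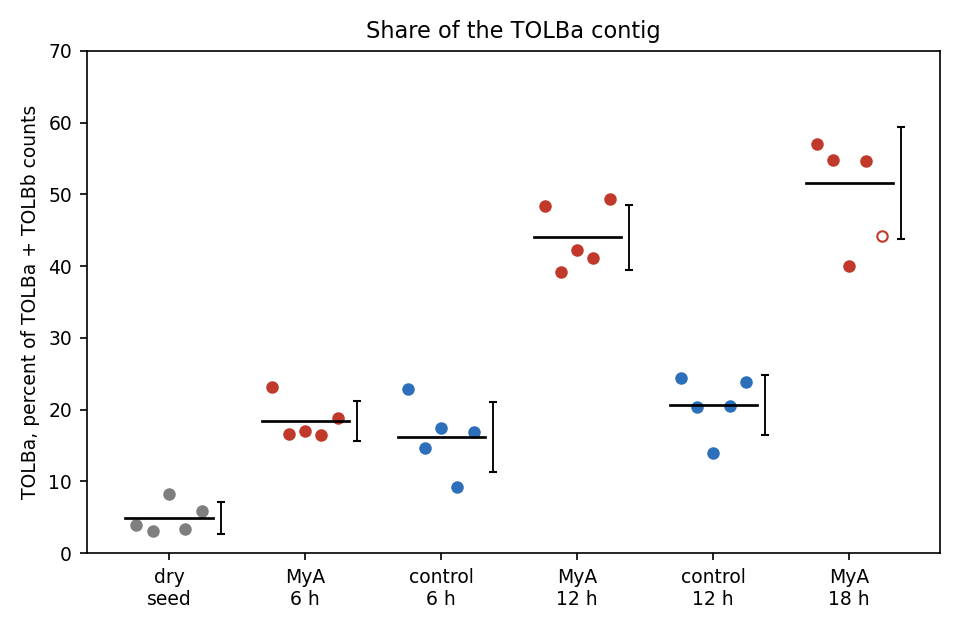
Share of TOLBa in the summed counts of TOLBa and TOLBb (percent) in each library; lines are means, bars are SD and the open point is the left-out library. The share was 39.1% to 49.4% in MyA seeds at 12 h and 40.0% to 57.0% at 18 h, against at most 24.4% in all other groups.

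For DJ1A, 2 further contigs (TC_16457 and TC_59639) were annotated to the same gene and were too low for the main filter, so they were tested with a filter of 5 counts in at least 4 libraries. TC_40165 held between 80.4% and 99.0% of the counts of the 3 contigs. In MyA seeds at 18 h TC_16457 had 1.80, 2.13, 2.43 and 3.37 CPM, against 0.689, 0.765, 0.216, 0.763 and 0.733 CPM in control seeds at 12 h. These ranges did not overlap, and TC_16457 was higher by 1.95 on the log2 scale (SE 0.33, adjusted p = 0.00389, edgeR). TC_59639 had 0.880, 0.744, 0.954 and 0.770 CPM in MyA seeds at 18 h, against 0.150, 0.265, 0.155, 0.327 and 0.275 CPM in control seeds at 12 h. Its control counts were between 5 and 9, and the log2 fold change was 1.84 (SE 0.29, adjusted p = 0.00239, edgeR), with 2.86% of contigs called higher in this wider fit. The control libraries at 6 h and 12 h were among those that chose the pair. As contigs of the same gene, TC_16457 and TC_59639 are not independent of that choice in tests that use these libraries, here or against dry seed.

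Against dry seed the DJ1A contigs parted. In control seeds at 6 h TC_16457 had 1.77, 2.72, 2.42, 1.60 and 1.31 CPM, against 4.27, 2.98, 3.62, 5.23 and 5.64 CPM in dry seeds. The groups did not overlap, and TC_16457 fell by 1.05 on the log2 scale (SE 0.25, adjusted p = 0.00226, edgeR), where 26.5% of contigs were called lower in this fit. The main contig TC_40165 stood at 1.27 in the same libraries. The fall of TC_16457 was no longer called when libraries were scaled by size alone (-0.71), by RT-qPCR reference contigs (-0.57) or fitted with all 6 groups (-0.97). TC_59639 had a log2 fold change of -0.42 (SE 0.23, adjusted p = 0.11, edgeR) and was not called. In MyA seeds at 18 h over dry seed, where TC_40165 stood at 2.63, both other contigs also pointed down. TC_16457 was at -0.69 (SE 0.27, adjusted p = 0.04, edgeR), short of the 2-fold limit. TC_59639 was at -0.40 (SE 0.25, adjusted p = 0.171, edgeR), and neither was called. Between MyA seeds at 18 h and control seeds at 12 h, the log2 ratio of TC_40165 to TC_16457 was higher by 0.35, given with no test for the same reason as above. Without control replicate 3, whose TC_16457 level was the lowest, this difference was 0.71.

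**Figure D4:**
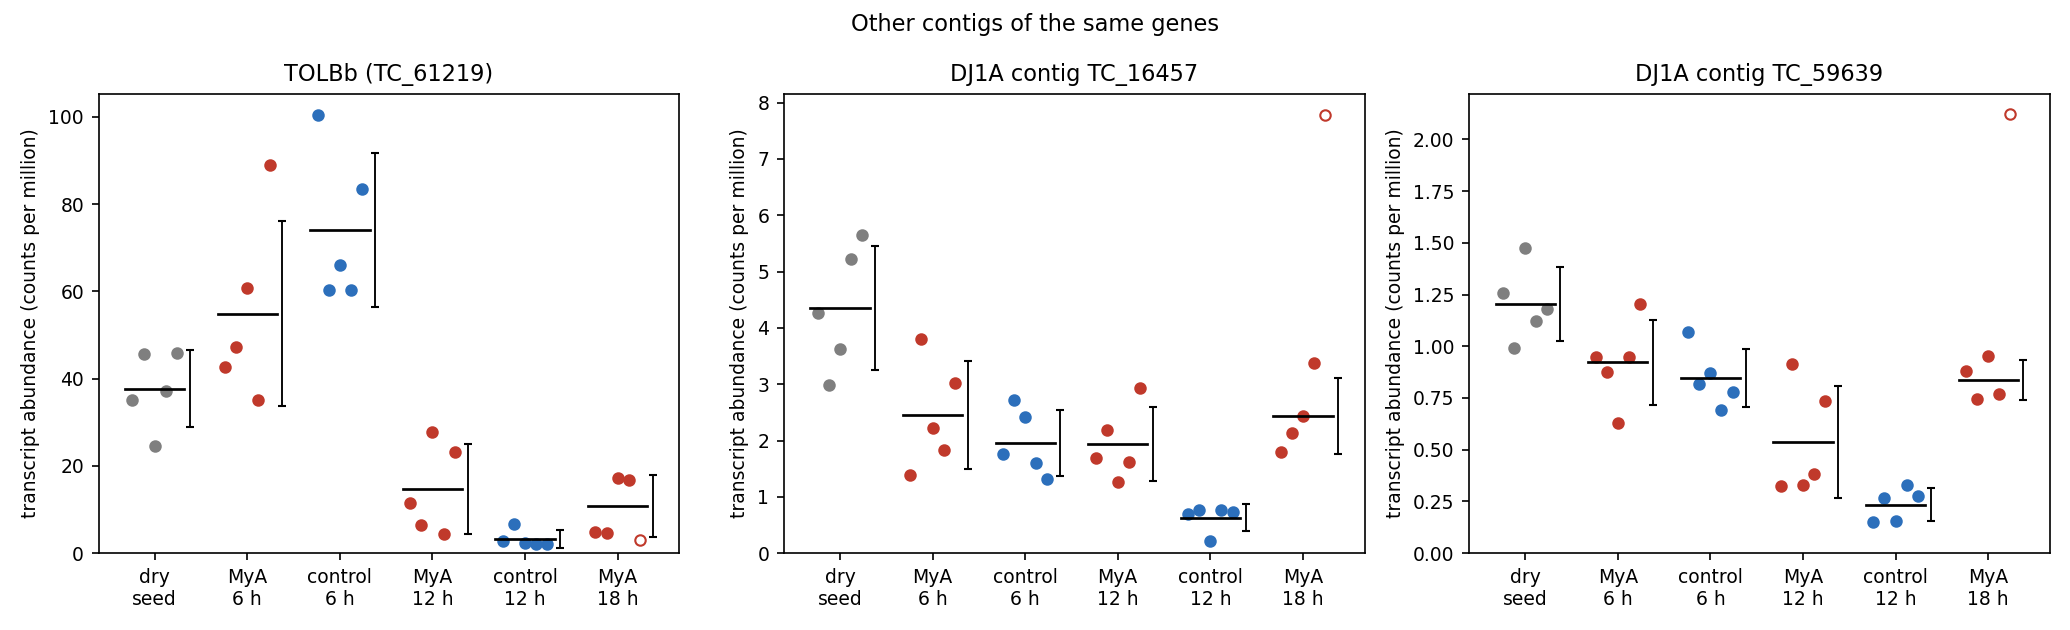
Transcript abundance (CPM, linear axes from 0) of TOLBb and of the DJ1A contigs TC_16457 and TC_59639 in each library; lines are means, bars are SD and open points are the left-out library. TOLBb averaged 37.7 CPM in dry seeds and 10.9 CPM in MyA seeds at 18 h, and the DJ1A contigs were lowest in control seeds at 12 h.

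One other contig, TC_25759 (AT1G21670, a gene with a TolB-like domain), showed another course. It averaged 0.200 ± 0.0929 CPM in MyA seeds and 0.206 ± 0.1101 CPM in control seeds at 6 h (SD, n = 5 each). At 12 h it averaged 2.74 ± 1.70 CPM in MyA seeds and 2.75 ± 1.03 CPM in control seeds, and the log2 fold change was 0.05 (SE 0.41). At 18 h it had 11.1, 6.90, 10.03 and 12.37 CPM in the fitted MyA libraries, all above the highest library of 12 h. The left-out MyA library, scaled by its size alone, had 3.30 CPM, within the range of 12 h. TC_25759 was called higher at 18 h with MyA than at 12 h with MyA (1.86, SE 0.42, adjusted p = 0.0222, edgeR) and than in control seeds at 12 h (1.85, SE 0.29, adjusted p = 0.00224, edgeR).

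Contigs of genes with related roles were counted in 3 lists, which draw on contigs that the study itself picked from these libraries and so are not independent evidence of direction. Some genes have several contigs in a list, such as UGT73B5 and GSTU25 in the first, so the counts cover fewer genes than contigs. The first held 18 contigs of genes such as glutathione transferases, glycosyltransferases and OPDA reductases. They come from the study's core set of genes that were raised by MyA in these seeds and by other allelochemicals in seedlings. The study also places tolB in this core set, but TOLBa and TOLBb were not counted in the list. Of 15 tested for MyA at 18 h over control at 12 h, 13 were called higher and 0 lower, where 2.43% of all contigs tested were called higher. The median log2 fold change was 2.63, against -0.02 over all contigs. The highest was the glutathione transferase GSTU25 (TC_23016, 5.96, SE 0.31), and the lowest was the glucosyltransferase UGT73B2 (0.81, SE 0.07), which did not reach 2-fold. In control seeds at 6 h over dry seed, 12 of the 15 were called higher and 0 lower, where 26.5% of all contigs were called higher.

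The second list held 13 contigs of antioxidant and thiol genes. For MyA at 18 h over control at 12 h, 5 of 7 tested were called higher and 0 lower, with a median of 2.61 and 2.43% of all contigs called higher. Of these 7, an iron superoxide dismutase contig (FSD1, TC_62123), which detoxifies superoxide in plastids, was the highest at 2.99 (SE 0.33). The glutaredoxin family contig AT5G58530 (TC_66540) was the lowest at 0.63 (SE 0.28) and was not called. Further FSD1 contigs (TC_57989 and TC_41220) were also among those called higher. The other contigs of the list were tested with the filter of 5 counts and did not share one direction. There AT2G17420 (TC_30136) was called lower (-1.35, SE 0.30, adjusted p = 0.0141, edgeR), and HCF164 stood at -0.78 (SE 0.60), not called. Called higher were FSD1 contigs TC_38602 (2.88) and TC_63012 (2.44), AT5G21105 (1.97) and GSH1 (1.07). In control seeds at 6 h over dry seed, 1 of the 7 was called higher and 4 lower, where 23.4% of all contigs tested were called lower. The third list held 7 contigs of other genes annotated with the response to cyclopentenone. For MyA at 18 h over control at 12 h, 3 of 4 tested were called higher and 0 lower, with a median of 1.71, beside the same 2.43% of all contigs. The auxin signalling repressor SHY2 was highest (2.08, SE 0.29), and the OPDA-conjugating glutathione transferase GSTU19 (TC_22725, 1.05, SE 0.40, adjusted p = 0.0754, edgeR) was not called. With the filter of 5 counts none of the other contigs of this list was called. PIN7 (an auxin efflux carrier) was at -0.67 (SE 0.22), and GSTU19 contigs TC_60657 and TC_38404 were at 1.04 (SE 0.41) and 0.61 (SE 0.29).

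The contigs most like each of the pair were found from the 6 group means of log2 CPM, each centred on its own mean, by the root mean square difference over the 6 groups among 22154 other contigs. For DJ1A the nearest had a difference of 0.321 and carried no name in the annotation used here. The next were SDR2 (a short-chain dehydrogenase, 0.339) and DHAR2 (dehydroascorbate reductase, which recycles ascorbate, 0.395), and the other two of the nearest 5 were unnamed. SDR2 averaged 45.7 ± 9.04 CPM in MyA seeds and 22.7 ± 3.81 CPM in control seeds at 12 h, and 74.2 ± 7.20 CPM in MyA seeds at 18 h. DHAR2 had 2.18, 2.17, 4.95 and 20.7 CPM in MyA seeds at 18 h, so that its mean there leaned on replicate 4. For TOLBa all of the nearest 5 were named. They were an OPR1/2 contig (an OPDA reductase, 0.493), 2 contigs of SAT1 (a serine acetyltransferase of cysteine synthesis, 0.517 and 0.623), the transcription factor NAC102 (0.632) and the transporter ABCG37 (0.682). The OPR1/2, SAT1 and NAC102 contigs are also in the first list, which comes from a core set in which the study includes tolB. DJ1A and TOLBa differed from each other by 1.01, which ranked TOLBa 9877th for DJ1A (median of all contigs 1.06) and DJ1A 41st for TOLBa (median 1.64). These distances are a description over 6 groups that share control and dry seed libraries.

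**Figure D5:**
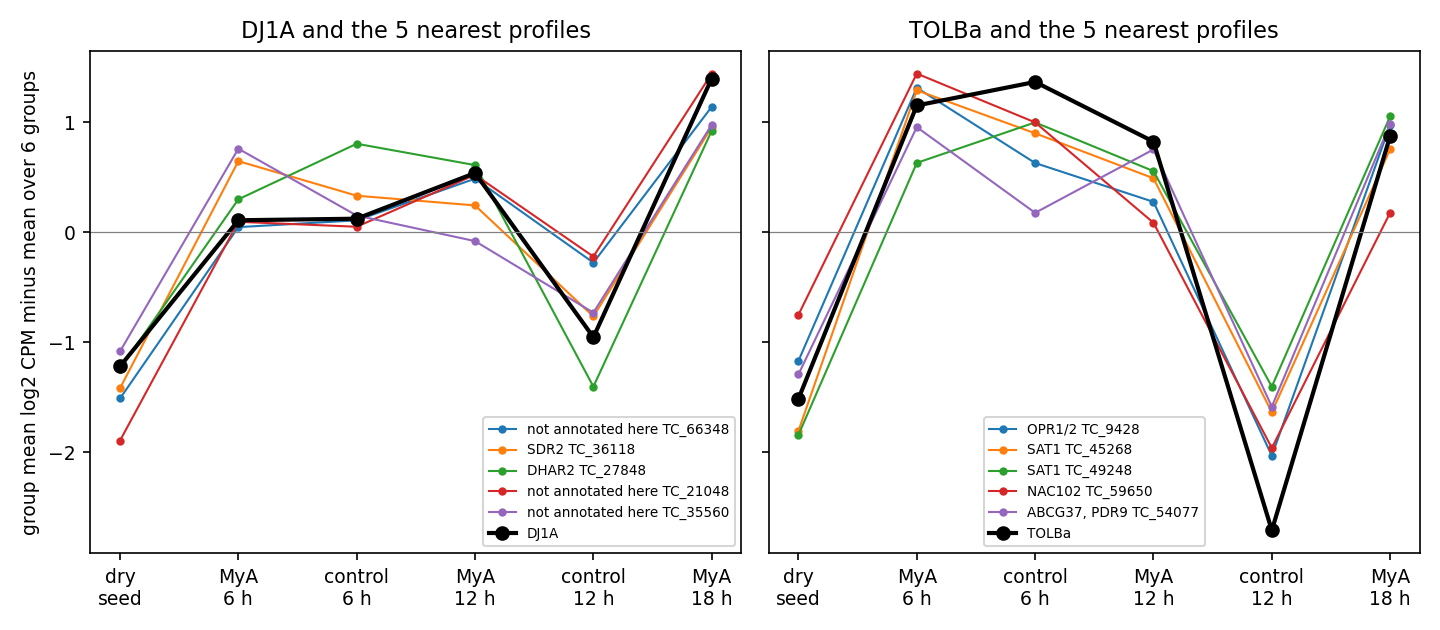
Group means of log2 CPM minus the mean over 6 groups, for DJ1A and its 5 nearest contigs (left) and for TOLBa and its 5 nearest contigs (right). In both panels the group means dip in dry seed and in control seeds at 12 h, and TOLBa dips further at 12 h than its nearest contigs.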

How the data were processed

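The deposited values are whole-number read counts per transcript contig. Per the submitters' processing notes, the authors used BWA and HTSeq (versions not given in the sources used here), and per the study's methods the reads were mapped to a transcriptome assembled from these seeds. Annotation of contigs to Arabidopsis genes came from the study's supplementary sheets, some of which were held only in part. No contig sequence was used here.

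Counts were analysed in R 4.3.3 with edgeR 4.0.16 (TMM factors, glmQLFit and glmQLFTest) on the libraries of each comparison, and with DESeq2 1.42.0 as an alternative. Contigs with at least 5 CPM in at least 4 of 29 libraries were tested (22155 contigs). For contigs below this, a filter of 5 counts in 4 libraries was used (42831 contigs). Calls needed both a change of more than 2-fold and p below 0.05 after Benjamini-Hochberg adjustment. Library totals of 20218374 to 33609057 counts put 5 CPM at 102 to 169 counts. The fit across MyA and time at 6 h and 12 h used 20 libraries. Ratios of contigs used a pseudocount of 0.5. For the pair, only MyA at 18 h over dry seed is given with a test, since the other groups were among those that chose it. The fit was tested on simulated counts.

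The pair, the lists of genes and the comparisons were chosen with earlier results of these data known. The text names the pair, other contigs of the same genes, TC_25759, the highest and lowest contig of each list for MyA at 18 h over control at 12 h, and the 5 contigs most like each of the pair. Alternatives were other scalings, other filters, a fit over all 6 groups, the replicate number as a block, removal of the enriched contigs, inclusion of the fifth MyA library at 18 h, and each library left out in turn.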

Additional observations from a re-analysis of the deposited data

Results flagged for a closer look

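Among 30 groups of libraries (5 contigs of the 2 genes in 6 groups), 2 held a library that stood far from the others of its group, where chance gives about 1 in 20. TOLBb in control seeds at 12 h was 6.77 CPM in replicate 2, against 2.05 to 2.78 CPM in the other libraries. The DJ1A contig TC_16457 in control seeds at 12 h was 0.216 CPM in replicate 3 (7 counts), against 0.689 to 0.765 CPM in the others. In the MyA 18 h library that was left out of the fits, 3 contigs were above every control library. DJ1A was 112 CPM there, against at most 92.0 CPM in control libraries, but below the other MyA 18 h libraries. That library was scaled by its size alone, and the enriched contigs took 23.5% of its counts, which lowers the CPM of all other contigs in it. Its levels are therefore not on the same scale as those of the other MyA 18 h libraries. The contigs TC_16457 and TC_59639 were 7.78 and 2.12 CPM there, above all of the 29 other libraries (at most 5.64 and 1.47 CPM). TOLBa was 2.31 CPM there, against at least 5.62 CPM in the other MyA 18 h libraries and 1.31 to 2.89 CPM in dry seeds.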

How the results depend on the processing

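For MyA at 18 h over dry seed, DJ1A and TOLBa kept their direction and call under every alternative run. For MyA at 18 h over control at 12 h, and for control at 6 h over dry seed, they kept their direction. For MyA at 18 h over control at 12 h, other settings gave log2 fold changes of 2.29 to 2.45 for DJ1A and 3.52 to 3.77 for TOLBa, with DESeq2 among them. With each library left out in turn, they gave 2.21 to 2.44 for DJ1A and 3.18 to 4.16 for TOLBa. The difference in MyA effect between 6 h and 12 h was 1.51 to 1.77 for DJ1A and 3.88 to 4.68 for TOLBa with each library left out. For MyA at 18 h over MyA at 12 h, DJ1A stayed under 2-fold (0.76 to 0.98 under other settings and 0.68 to 0.94 with each library left out), and TOLBa changed sign with libraries left out (-0.64 to 0.13).

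The replicate numbers were shared between groups but were not taken to pair the libraries, since in no comparison was every correlation of same-numbered libraries over 0.1. These correlations were -0.47 to -0.19 for MyA at 18 h and control at 12 h, -0.43 to 0.34 for MyA at 18 h and 12 h (2 of 4 over 0.1), -0.22 to -0.13 for MyA at 18 h and dry seed, and -0.08 to 0.70 for control at 6 h and dry seed (3 of 5 over 0.1). With the replicate block, TOLBa for MyA at 18 h over MyA at 12 h was 0.25 in place of -0.16, and 453 contigs were called for MyA at 18 h over control at 12 h in place of 752. With the block TOLBb, TC_16457 and TC_59639 were not called in that comparison (adjusted p = 0.203, 0.0556 and 0.061, edgeR).

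Counts of calls moved with the filter. With 5 counts in 4 libraries, and with no filter, they were 1600 and 1537 for MyA at 18 h over control at 12 h (752 in the main fit), 844 and 787 over MyA at 12 h (515), 19224 and 19864 over dry seed (10690), and 22900 and 23708 for control at 6 h over dry seed (11064), where more contigs were tested. With each library left out, the first was 563 to 2256, with 1331 without control replicate 4 and 2256 without MyA replicate 4. The contigs called for the difference in MyA effect were 15, against 108 with DESeq2, 3 with library size alone and 4 to 1672 with each library left out (1376 without control 6 h replicate 5 and 1672 without MyA 12 h replicate 5), and the cause was not tested. Scaling by reference contigs moved the share of calls that were higher to 83.3% in place of 71.7% for MyA at 18 h over control at 12 h. It moved it to 77.3% in place of 53.7% over dry seed, and to 74.7% in place of 53.0% for control at 6 h over dry seed. Under it TC_59639 turned to 0.021 and 0.070 over dry seed at 18 h with MyA and at 6 h in control seeds, neither called.

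The difference in the log2 ratio of TOLBa to TOLBb between MyA at 18 h and control at 12 h was 1.88 to 2.26 with each library left out. The same difference for TC_40165 to TC_16457 was -0.12 with the fifth MyA library and 0.21 to 0.71 with each library left out. For TC_16457 and TC_59639 libraries were not left out in turn. The low counts of TOLBa (12 to 59) and TC_59639 (5 to 9) in control seeds at 12 h limit the precision of their fold changes.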
